A study of Mus musculus with 6 samples.

Results

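Glycolysis and the tricarboxylic acid (TCA) cycle were followed through 37 listed genes in the mouse mammary carcinoma line 4T1, an epithelial line described by the submitters as triple negative. The genes run from the glucose transporter Slc2a1 to the malate dehydrogenases and were taken from a list of names, which was drawn up with earlier results of these data known. All 37 averaged 1 FPKM or more across the 6 libraries (FPKM counts fragments relative to transcript length and to the library's mapped total), out of 28418 genes listed and 11741 that reached that mean. Perfluorooctane sulfonate (PFOS), a persistent fluorinated surfactant, was given at 100 nM to 1 group of cells, while the comparison group is labelled 0 nM, and both groups were kept for 35 passages. Each group has 3 libraries of poly(A) RNA. The labels name no vehicle and do not say whether replicates are separate cultures, so the p-values below measure the spread between these libraries, which may be technical.

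Glycolysis splits glucose into pyruvate in the cytosol: hexokinase traps the sugar, phosphofructokinase commits it, aldolase cleaves it, and the payoff steps from glyceraldehyde-phosphate dehydrogenase to pyruvate kinase return ATP and NADH. Pyruvate is either reduced to lactate, which leaves the cell through monocarboxylate transporters, or enters mitochondria, where the pyruvate dehydrogenase complex makes the acetyl-CoA that citrate synthase feeds into the TCA cycle. Tumour lines such as 4T1 are known for high lactate output even when oxygen is present, and many glycolytic genes are textbook targets of the hypoxia-inducible factors and of Myc.

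The deposited FPKM summed to between 306715.64 and 309380.98 per library, and the read depth behind them is unknown. All 10 epithelial markers were present, and their summed level was 777.31 to 777.66 FPKM at 0 nM and 809.37 to 869.07 FPKM at 100 nM. The third replicate at 100 nM stood apart: its score on the first principal component, which held 34.9% of the variance, was 19.4, against -9.57 to 0.06 in the other 5 libraries. In that library Gzmb was at 14.94 FPKM (at most 0.05 elsewhere) and Nkg7, Cd3e and Cd3g, at 0 in the other 5, were at 2.58, 0.66 and 1.05 FPKM. The summed level of the leukocyte markers, of which 13 of 14 had a value, was 140 to 176 FPKM at 0 nM and 137 to 278 FPKM at 100 nM, mostly from Lyz2. The 10 fibroblast, endothelial and muscle markers summed to 5.16 to 5.82 FPKM at 0 nM and 5.25 to 6.45 FPKM at 100 nM, and the 5 erythroid markers to 0.1 to 4.45 and 0.110 to 0.180 FPKM. The part of these markers in the differences below was not tested, and results without the third replicate at 100 nM are given where a call or a direction changed and for the called genes. The third replicate at 0 nM also stood apart, on the second component (24.1% of the variance), with a score of -14.9 against -5.15 to 5.97 in the other 5, and without it limma called 0 of the 37 genes (9 at an unadjusted p under 0.05). In bulk RNA, fewer cells of a type and less RNA per cell cannot be told apart.

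Most of the pathway differed little between the groups, and 4 of the 37 genes passed the test. Pgk1, which makes the first ATP of the payoff phase, and Aldoc, the brain-type aldolase, were higher at 100 nM. Pfkm, the muscle-type phosphofructokinase, and Ogdh, the catalytic subunit of the 2-oxoglutarate dehydrogenase complex, were lower. These 4 calls are at a Benjamini-Hochberg adjusted p under 0.05 by limma on log2(FPKM + 1), a test that called 4.15% of the 11741 genes (1.69% higher and 2.46% lower). At an unadjusted p under 0.05 there were 16 of the 37 genes, 10 higher and 6 lower, against 20.7% of all genes tested. The 3 values of a group lay wholly above or below those of the other group for 19 of the 37 genes, 11 higher and 8 lower at 100 nM, where 26.9% of all genes tested showed such a separation. Among the 34 members of at least 5 FPKM this held for 18, against 30.8% of all genes at that level, and a fit of those genes alone called 5 of the 34, against 7.98%. The median difference on the log2(FPKM + 1) scale was 0.04 over the 37 genes and 0.01 over all genes tested, with 25 means higher and 12 lower. Of the 4 called genes Aldoc differed most, with a mean at 100 nM of 1.19 times that at 0 nM. On the other strand 12 of the 37 overlap another gene, and 11 share at least 10% of their 31-base words with other genes, so reads of these could have been divided between loci.

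**Figure D1:**
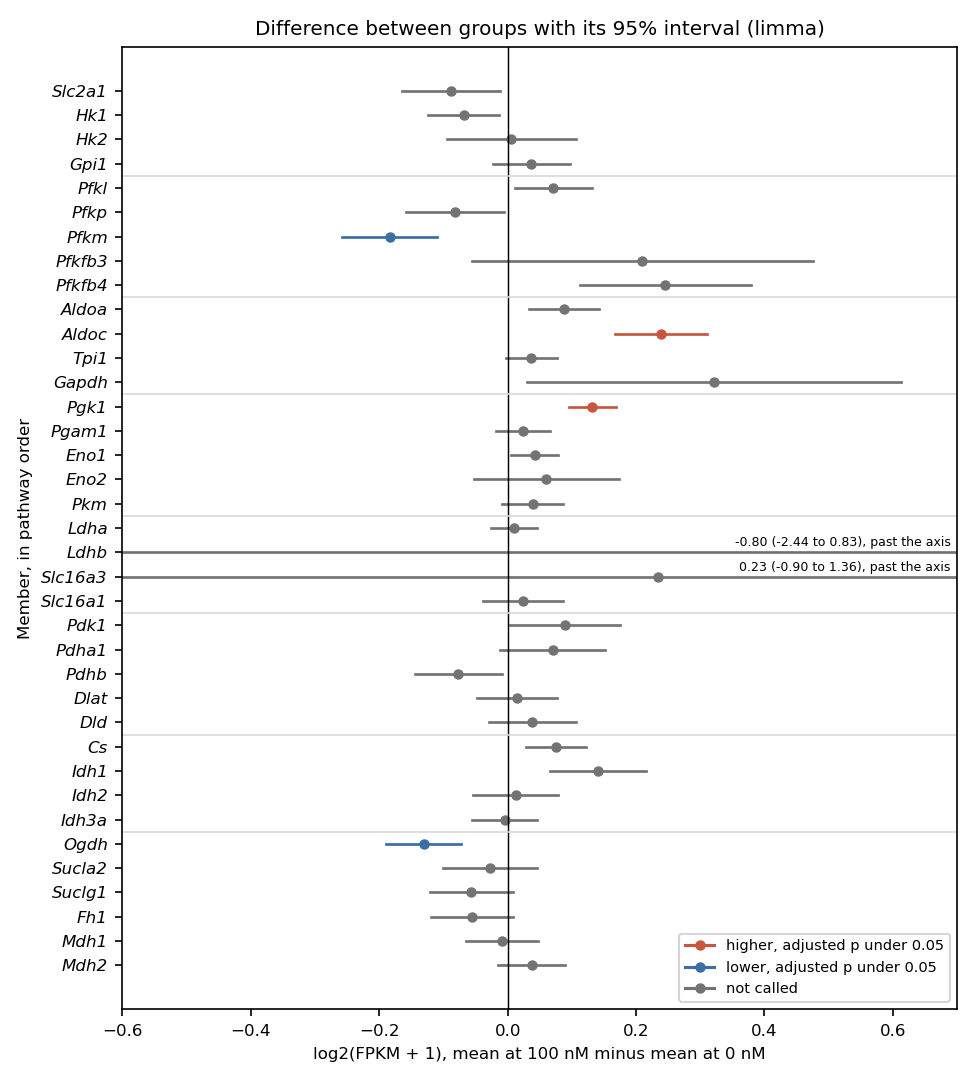
Difference between the group means on the log2(FPKM + 1) scale (x axis, 100 nM minus 0 nM) for the 37 genes in pathway order (y axis), each with its 95% interval from limma; grey lines part the 8 groups of steps. The 2 genes higher (Aldoc and Pgk1) and the 2 lower (Pfkm and Ogdh) at an adjusted p under 0.05 are coloured, and most other points lie within 0.1 of 0. The intervals of Ldhb and Slc16a3 run past the axis and are printed. The point of Ldhb, at -0.80, lies off the axis and is not drawn.

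The levels spanned a wide range between members. Of the single rows, Pgk1 had the highest mean over the 6 libraries, 829 FPKM (rank 41 of the 11741 genes). Next were Pkm at 742, Ldha at 697, Aldoa at 585, Pgam1 at 456, Tpi1 at 451 and Eno1 at 405 FPKM. This order changed when genes holding most of their words in common with a member were added to it. Gapdh then had means of 5792 FPKM at 0 nM and 6198 FPKM at 100 nM. The same sums were 1452 and 1505 FPKM for Eno1, and 859 and 945 FPKM for Pgk1. The genes listed from citrate synthase to the malate dehydrogenases, which include the cytosolic Idh1 and Mdh1, lay between 14.8 FPKM (Idh1) and 82.9 FPKM (Mdh2). The lowest of the mitochondrial ones was Suclg1 at 20.8 FPKM. The lowest member was Pfkfb4 at 1.65 FPKM. Summed over the 37 genes, the level was 5102 ± 19.6 FPKM (SD, n = 3) at 0 nM and 5283 ± 26.4 FPKM (n = 3) at 100 nM, or 1.66% and 1.72% of all FPKM, and the groups did not overlap. The genes that share their words are not in this sum and held more, at 7002 ± 80.3 and 7457 ± 74.6 FPKM. With them the share of all FPKM was 3.93% at 0 nM and 4.14% at 100 nM. Reads counted at several loci would inflate the sums with copies, and whether any were is not given in the sources used here. The 22 glycolysis, lactate and transport genes made up most of the difference over the 37, with 4556 ± 18.5 FPKM at 0 nM and 4732 ± 25.6 FPKM at 100 nM. Much of it lay in a few high rows, such as Pgk1 (means of 791 and 867 FPKM) and Aldoa (567 and 603 FPKM). The 15 pyruvate dehydrogenase and TCA cycle genes, with Pdk1, Idh1 and Mdh1 counted among them, summed to 546.5 ± 1.68 and 551.2 ± 2.32 FPKM.

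**Figure D2:**
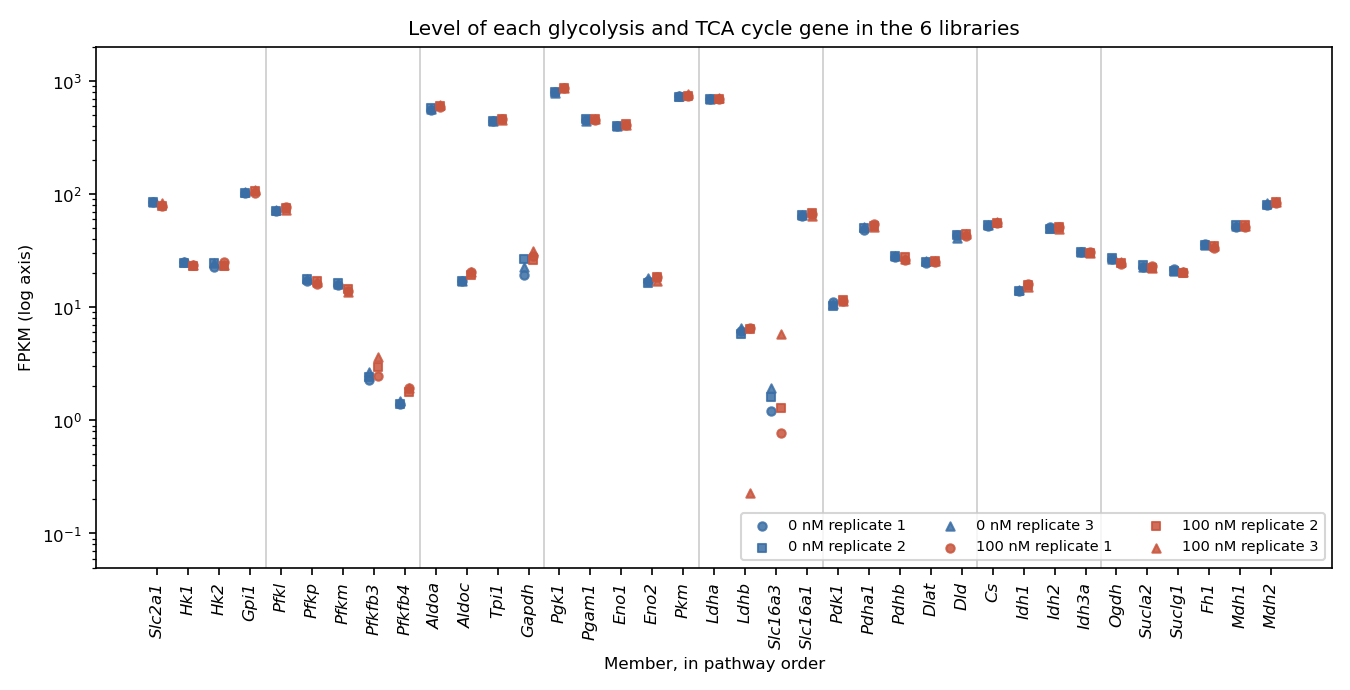
FPKM on a log axis of each of the 37 genes in pathway order (x axis) in the 6 libraries, blue for 0 nM and red for 100 nM, with 1 symbol per replicate. The groups lie close together for nearly all genes, from Pgk1 at a mean of 829 FPKM to Pfkfb4 at 1.65 FPKM, while Ldhb and Slc16a3 each have 1 value far from the rest, in the third replicate at 100 nM.

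The 250 bases before the start of the 4 called genes are shown because the data join them by a difference between the groups; the capitals mark ACGTG or GCGTG on either strand (CACGT or CACGC as printed), the letters of the hypoxia response element core. The sequences come from RefSeq on GRCm38.p6, all 4 on the plus strand, and for Pfkm, Aldoc and Ogdh, which have several annotated starts, the most upstream start near the deposited gene start was used.
Pgk1, chrX:106186850-106187099: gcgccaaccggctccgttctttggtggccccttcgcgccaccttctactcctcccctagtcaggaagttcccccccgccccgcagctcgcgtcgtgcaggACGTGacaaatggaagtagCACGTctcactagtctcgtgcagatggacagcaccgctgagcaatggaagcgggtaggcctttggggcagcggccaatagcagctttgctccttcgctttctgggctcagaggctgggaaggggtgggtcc
Aldoc, chr11:78322823-78323072: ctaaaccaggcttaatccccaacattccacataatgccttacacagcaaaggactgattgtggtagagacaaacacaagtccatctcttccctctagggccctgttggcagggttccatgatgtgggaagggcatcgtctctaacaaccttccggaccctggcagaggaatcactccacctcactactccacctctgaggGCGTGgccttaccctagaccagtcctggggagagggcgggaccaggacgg
Pfkm, chr15:98092339-98092588: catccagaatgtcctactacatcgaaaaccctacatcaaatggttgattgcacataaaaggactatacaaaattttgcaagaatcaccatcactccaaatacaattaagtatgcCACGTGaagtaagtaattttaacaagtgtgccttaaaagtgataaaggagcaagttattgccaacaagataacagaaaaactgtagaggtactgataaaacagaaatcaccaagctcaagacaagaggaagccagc
Ogdh, chr11:6291347-6291596: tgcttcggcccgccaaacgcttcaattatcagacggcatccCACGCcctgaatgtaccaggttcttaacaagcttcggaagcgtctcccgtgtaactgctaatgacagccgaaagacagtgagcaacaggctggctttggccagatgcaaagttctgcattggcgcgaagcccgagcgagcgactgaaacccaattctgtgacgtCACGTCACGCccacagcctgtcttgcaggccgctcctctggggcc
All 4 windows hold the letters, Pgk1 with 2 matches, Aldoc with 1, Pfkm with 2 (a CACGTG, which reads as ACGTG on both strands) and Ogdh with 3, so the match does not part the 2 genes that were higher from the 2 that were lower. A window was matched for 36 of the 37 members, 1 each. Its start lay 27467 bases from the deposited gene start for Sucla2 and 4329 bases for Ldha, whose window held 5 ACGTG matches. Of these 36, 25 (69.4%) held ACGTG or GCGTG, against 38.6% of the 32851 windows of 250 bases in the table. Counted separately, so that a window with both adds to each, ACGTG was in 33.3% of the members' windows (16.6% of all) and GCGTG in 50.0% (28.2%). CACGTG, the E-box read by Myc, which contains ACGTG, was in 8.33% (6.02%). The Sp1-type box GGGCGG was in 63.9% of them, against 32.7% of all windows. The windows of the table were not matched to those of the members for base composition or for expression, so these shares are unlike. A match to so few letters is a description of the window and shows no binding.

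Pgk1 (ENSMUSG00000062070, chrX:106187100-106203699, plus strand) codes for phosphoglycerate kinase. Its level was 796, 794 and 783 FPKM in the 3 replicates at 0 nM and 871, 868 and 861 FPKM at 100 nM. Every 100 nM library was above every 0 nM library, with means of 791 ± 6.66 and 867 ± 4.82 FPKM (n = 3 each). The difference was 0.13 ± 0.015 (SE) on the log2 scale, with an adjusted p of 0.00941 by limma, the smallest among the 37 genes. Pgk1 shares 54.7% of its 31-base words with transcripts of other genes, and its 3 processed pseudogenes in the files (Pgk1-rs7, Gm5537 and AC131796.1) summed to 68.5 ± 6.18 FPKM at 0 nM and 78.4 ± 1.58 FPKM at 100 nM, so a part of its reads could have been assigned to either. With these copies added the adjusted p was 0.00746. Within 2.5 Mb of Pgk1, 10 of 12 tested genes also averaged more at 100 nM (median difference 0.09, 1 call), and the part of this stretch of the X chromosome in the result was not tested. The call was lost under 7 of the 19 alternatives: without the filter on low values (adjusted p 0.112), under quantile normalization (0.0594), without the mean-variance trend (0.0584), under the replicate block (0.0772), with replicate 3 of both groups left out (0.0677), without the third replicate at 0 nM (0.0510) and without the second at 100 nM (0.0511). It remained without the third at 100 nM (0.0188).

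Aldoc (ENSMUSG00000017390, chr11:78322968-78327781, plus strand) codes for aldolase C, which cleaves fructose bisphosphate and is best known from brain. It stood at 16.97, 16.99 and 16.92 FPKM at 0 nM and at 20.48, 19.42 and 20.70 FPKM at 100 nM. The 3 control values were nearly the same, and all 3 values at 100 nM lay above them. The log2 difference was 0.24 ± 0.030 with an adjusted p of 0.0127. None of its 31-base words occur in another gene. The adjusted p was 0.0522 to 0.0628 when any of the 3 replicates at 0 nM or the first at 100 nM was left out, and 0.034 without the third at 100 nM.

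Pfkm (ENSMUSG00000033065, chr15:98092589-98132447, plus strand) is the muscle-type subunit of phosphofructokinase, the committed step of glycolysis. Its level was 15.83, 16.26 and 16 FPKM at 0 nM and 14.00, 14.45 and 13.54 FPKM at 100 nM. All 3 libraries at 100 nM were below all 3 at 0 nM, by a mean of 0.873 times, and the log2 difference was -0.18 ± 0.031 with an adjusted p of 0.0315. Senp1 overlaps Pfkm on the other strand, and whether strand was used in quantification is not given in the sources used here. The call did not remain when any 1 of the 6 libraries was left out, with adjusted p between 0.0593 and 0.113. Without the third replicate at 100 nM it was 0.0625.

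Ogdh (ENSMUSG00000020456, chr11:6291633-6356642, plus strand) codes for the subunit that decarboxylates 2-oxoglutarate in the TCA cycle. Its level was 26.92, 27.08 and 26.62 FPKM at 0 nM and 23.96, 24.46 and 24.95 FPKM at 100 nM. The groups did not overlap, the mean at 100 nM was 0.910 times that at 0 nM, and the log2 difference was -0.13 ± 0.024 with an adjusted p of 0.0391. Its words occur in no other gene. Leaving out any 1 of the 6 libraries ended the call, with adjusted p between 0.0521 (without the third replicate at 100 nM) and 0.132. Dlst, another subunit of the 2-oxoglutarate dehydrogenase complex and no member, went the other way. It was at 22.05 to 22.56 FPKM at 0 nM and 23.30 to 24.31 FPKM at 100 nM, without overlap and not called by limma (adjusted p 0.119).

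**Figure D3:**
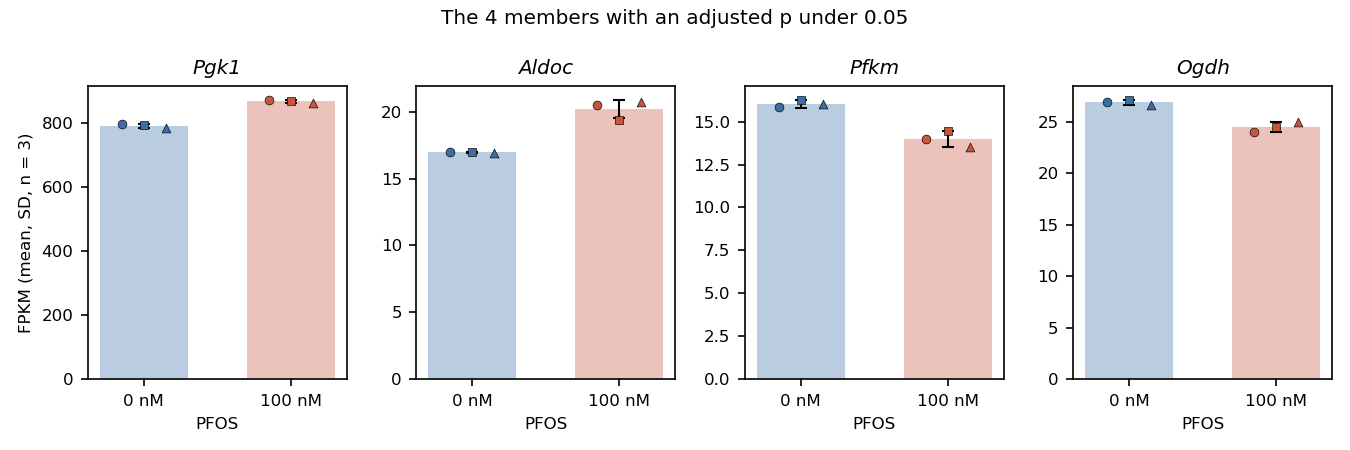
FPKM of the 4 genes with an adjusted p under 0.05 at 0 nM and 100 nM PFOS; bars are means, error bars the SD (n = 3), and symbols the libraries (circle, square and triangle for replicates 1, 2 and 3). For each gene the 3 values at 100 nM lie wholly above (Pgk1, Aldoc) or below (Pfkm, Ogdh) the 3 at 0 nM, and the axes start at 0.

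At the entry of glucose none of 4 genes passed the test in limma (2 had an unadjusted p under 0.05, both lower). Slc2a1, the main glucose carrier of most tumour cells, was at 85.80, 84.94 and 85.13 FPKM at 0 nM and at 78.36, 78.11 and 84.17 FPKM at 100 nM. Its 100 nM values were all below those at 0 nM, although the third was close to them, and the adjusted p was 0.185. Without replicate 3 at 100 nM, Slc2a1 was called lower, with a log2 difference of -0.12 and an adjusted p of 0.0393. Hk1, the housekeeping hexokinase, was at 24.98, 24.43 and 25.05 FPKM at 0 nM and 23.87, 23.33 and 23.69 FPKM at 100 nM (adjusted p 0.163). Its groups did not overlap, whereas those of Hk2, the inducible hexokinase, did, at 22.89, 24.54 and 24.47 against 25.30, 23.36 and 23.54 FPKM (adjusted p 0.959). The hexokinases took nearly equal parts of their summed level, with a share of Hk2 of 49.1% ± 1.18 at 0 nM and 50.4% ± 0.881 at 100 nM. Gpi1, glucose-phosphate isomerase, ranged over 101.94 to 104.50 FPKM at 0 nM and 102.44 to 107.79 FPKM at 100 nM.

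Among the 3 phosphofructokinase subunits the liver type, Pfkl, was the most abundant. Its level was 71.57, 70.43 and 72.19 FPKM at 0 nM and 76.22, 76.15 and 72.88 FPKM at 100 nM, without overlap and with an adjusted p of 0.170. Pfkp, the platelet type, was at 17.00, 17.92 and 17.78 FPKM at 0 nM and 16.10, 16.90 and 16.61 FPKM at 100 nM, also without overlap but in the other direction (adjusted p 0.211). As a share of the summed subunits, Pfkl was 68.0% ± 0.623 at 0 nM and 71.1% ± 0.523 at 100 nM, Pfkp 16.7% ± 0.425 and 15.7% ± 0.492, and Pfkm 15.3% ± 0.240 and 13.3% ± 0.166 (n = 3 each). For all 3 shares the groups did not overlap. The difference in the share of Pfkl stayed between 2.75 and 3.36 percentage points when any 1 library was left out. The shares describe RNA levels and were not tested.

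The bifunctional enzymes that set the level of the phosphofructokinase activator fructose bisphosphate (the 2,6 form) were low. Pfkfb4, the lowest of all 37 genes, was at 1.40, 1.39 and 1.48 FPKM at 0 nM and 1.92, 1.78 and 1.92 FPKM at 100 nM. Its groups did not overlap, and the mean at 100 nM was 1.32 times that at 0 nM, but the log2 difference of 0.25 ± 0.056 had an adjusted p of 0.0636. It passed the test when only protein-coding genes were fitted (0.0414) and without the mean-variance trend (0.0284). Pfkfb3 was at 2.26, 2.40 and 2.68 FPKM at 0 nM and 2.45, 2.96 and 3.62 FPKM at 100 nM, with overlap (adjusted p 0.341). Its log2 difference was 0.21, and 0.10 without the third replicate at 100 nM (adjusted p 0.580). The share of Pfkfb4 in the pair overlapped between the groups, at 36.8% ± 1.34 and 38.7% ± 4.75.

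The aldolase and triose steps had higher means at 100 nM in 4 of 4 genes, of which Aldoc passed the test. Aldoa (Fam57b overlaps it on the other strand), the main aldolase of most tissues, was at 554, 576 and 571 FPKM at 0 nM and 594, 598 and 616 FPKM at 100 nM. All 3 values at 100 nM were above those at 0 nM, with a log2 difference of 0.09 ± 0.023 and an adjusted p of 0.0909. Since Aldoa outweighs Aldoc, the share of Aldoc in the aldolases was 2.90% ± 0.0580 at 0 nM and 3.24% ± 0.0941 at 100 nM, without overlap. The values of Aldoa are those of ENSMUSG00000030695, while another identifier with the same symbol was at 1.94 to 4.41 FPKM. Tpi1, triose-phosphate isomerase, lay between 441 and 447 FPKM at 0 nM and between 451 and 460 FPKM at 100 nM, without overlap (adjusted p 0.273).

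Gapdh, the gene of glyceraldehyde-phosphate dehydrogenase and a common reference in expression work, was listed at far less than its neighbours in the pathway, at 19.25, 26.78 and 22.63 FPKM at 0 nM and 28.57, 25.95 and 31.55 FPKM at 100 nM. The groups overlapped, and the log2 difference of 0.32 ± 0.12 had an adjusted p of 0.203. The files list 43 further genes, 41 of them processed pseudogenes and 2 protein-coding, with at least 50% of their 31-base words found in Gapdh. These copies summed to 5769 ± 63.7 FPKM at 0 nM and 6170 ± 61.5 FPKM at 100 nM (n = 3), without overlap. The row of Gapdh itself held 0.329% to 0.515% of the sum of Gapdh and its copies. A single processed pseudogene, Gm13394 (chr2:28933610-28934609, minus strand), held 41.0% to 41.8% of it, at 2404, 2396 and 2375 FPKM at 0 nM and 2574, 2593 and 2518 FPKM at 100 nM.

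The 1000 bases of Gm13394 align to the coding sequence of Gapdh without a gap and differ from it at 1 base, A424C, counted from the A of the start codon of transcript Gapdh-202. The 60 bases around that position are shown from the GENCODE M21 transcripts because they hold the only differing position of the alignment; the capital marks the differing base.
Gapdh-202, coding bases 394 to 453: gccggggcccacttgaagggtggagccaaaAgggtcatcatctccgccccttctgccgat
Gm13394, bases 316 to 375: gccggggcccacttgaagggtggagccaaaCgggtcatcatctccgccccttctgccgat
Summed with its copies, Gapdh was called higher, with a log2 difference of 0.10 ± 0.016 and an adjusted p of 0.0282; this sum was added after the data were seen. Of the 40 copies that reached 1 FPKM, 38 had a fitted log2 difference above 0 and 7 were called higher, none lower. These rows share words with Gapdh and may share reads, so they were not taken as separate observations, and how the authors' tools divided reads among the copies is not given in the sources used here.

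**Figure D4:**
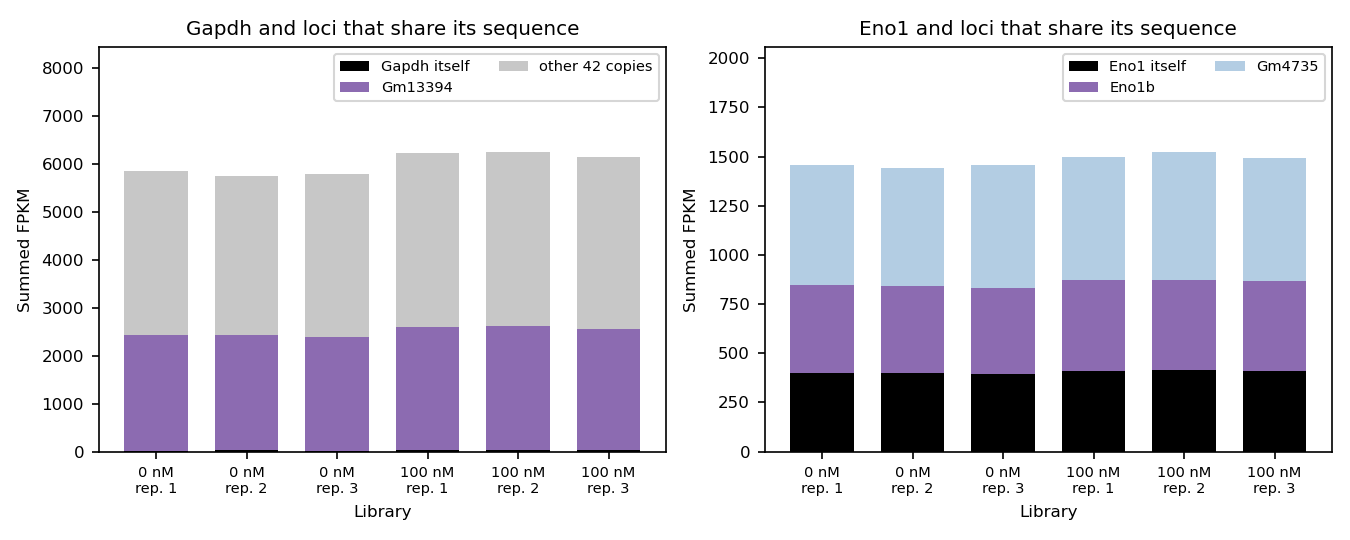
Summed FPKM per library (bars, axes from 0) of Gapdh with the 43 genes that share its words (left) and of Eno1 with Eno1b and Gm4735 (right). Gapdh itself, in black at the foot of the left bars, is barely visible at 19.25 to 31.55 FPKM, and the left bars stand between 5734 and 5854 FPKM at 0 nM and between 6132 and 6243 FPKM at 100 nM.

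The payoff steps that follow had higher means at 100 nM in 5 of 5 genes, of which Pgk1 passed the test. Eno1, the ubiquitous enolase, was at 401, 399 and 397 FPKM at 0 nM and 410, 413 and 409 FPKM at 100 nM. Its groups did not overlap, but the log2 difference of 0.04 ± 0.015 had an adjusted p of 0.182. Eno1b, a protein-coding gene, and the processed pseudogene Gm4735, which hold most of their words in common with Eno1, were at 433 to 462 and 599 to 653 FPKM, so the row of Eno1 carried less than the pseudogene did. Eno2, the neuronal enolase, was at 17.08, 16.52 and 18.07 FPKM at 0 nM and 18.45, 18.61 and 16.96 FPKM at 100 nM, with overlap (adjusted p 0.526). Its share beside the row of Eno1 alone was 4.14% ± 0.197 and 4.20% ± 0.191. Eno1b, Gm4735 and the muscle enolase Eno3 were not counted in that share, which would be smaller with them. Pkm, pyruvate kinase, ranged over 725 to 737 FPKM at 0 nM and 742 to 769 FPKM at 100 nM without overlap (adjusted p 0.327), and Pgam1, phosphoglycerate mutase, over 447.50 to 458.32 and 454.62 to 463.33 FPKM with overlap (adjusted p 0.488). Pkm and Pgam1 share 34.7% and 37.1% of their words with other genes.

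None of the 4 lactate genes passed the test in limma, either adjusted or at an unadjusted p under 0.05. Ldha, the subunit that favours lactate formation, was at 689, 698 and 696 FPKM at 0 nM and 696, 698 and 704 FPKM at 100 nM. Its log2 difference was 0.01, with a 95% interval from -0.03 to 0.05 and an adjusted p of 0.746. Ldhb, the subunit that favours the return to pyruvate, was at 6.20, 5.81 and 6.57 FPKM at 0 nM and at 6.61, 6.45 and 0.23 FPKM at 100 nM. The first and second replicates at 100 nM lay close to the controls, and the third was near 0. The share of Ldhb beside Ldha was therefore 0.826% to 0.940% in 5 libraries and 0.0327% in the third replicate at 100 nM. In that library 13 tested genes, Ldhb among them, were under 0.1 times the lowest value in the other 5, a count that was 0 to 3 in each other library. Golt1b and Cmas, picked by hand on either side of Ldhb on chromosome 6, showed no such drop. In that library Golt1b was at 17.33 FPKM (17.25 to 18.42 in the others) and Cmas at 15.44 FPKM (14.35 to 16.25). Golt1b ends at base 142403858 and Cmas starts at 142756686, with Ldhb at 142490249 to 142507957. Genes nearer to Ldhb were not looked at. Over all 3 replicates the difference of Ldhb was -0.80 ± 0.68 on the log2 scale (adjusted p 0.558), and without the third at 100 nM it was 0.07.

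The lactate exporter Slc16a3 went the other way in the same library. It was at 1.22, 1.6 and 1.92 FPKM at 0 nM and 0.78, 1.28 and 5.75 FPKM at 100 nM, so the third replicate was the highest of the 6 and the first the lowest of the 6. Its share beside Slc16a1 was 1.16% to 2.86% in 5 libraries and 8.21% in that one. The log2 difference of 0.23 ± 0.47 (adjusted p 0.827) became -0.35 without it (adjusted p 0.305). Hk3, the hexokinase of myeloid cells and no member, was also highest there, at 2.58 FPKM against 0.48 to 1.79 FPKM in the other libraries. Of the leukocyte markers, Coro1a, Laptm5 and Cd68 were highest in that library too (12.09, 11.99 and 31.13 FPKM). Lyz2, the most abundant on the list, was highest in the second replicate at 100 nM (240.43 FPKM, against 185.11 in the third). Cd79a was at 0 in the third. The part of other cells in these values was not tested. Slc16a1, the broadly expressed carrier, was at 63.78, 65.89 and 65.27 FPKM at 0 nM and 66.22, 67.67 and 64.28 FPKM at 100 nM (adjusted p 0.671).

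**Figure D5:**
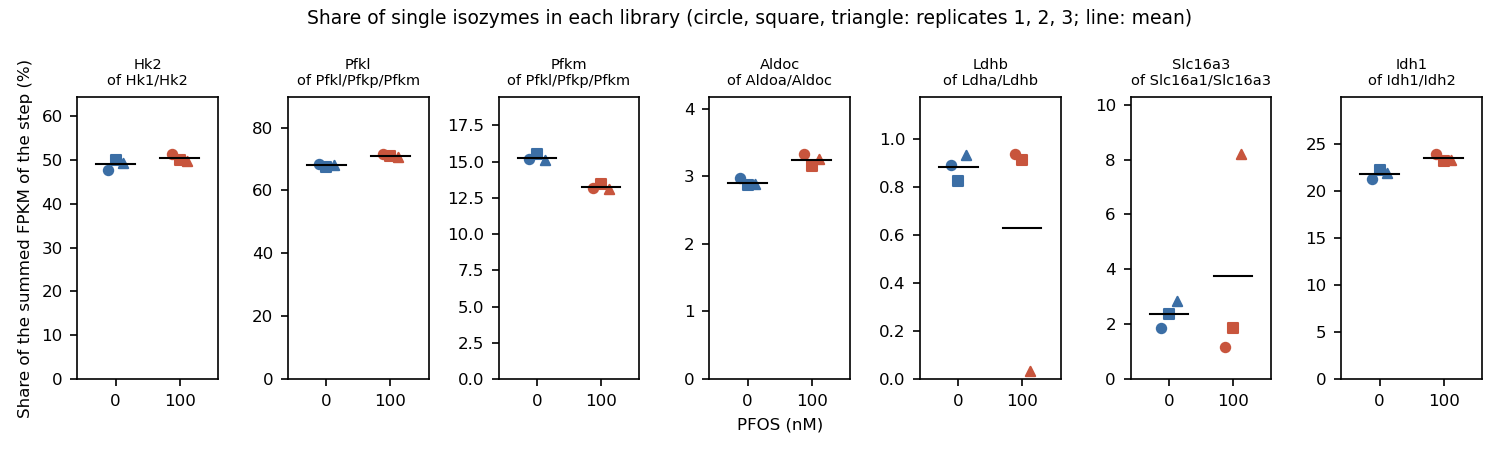
Share (%) of 7 isozymes or subunits in the summed FPKM of their step, at 0 and 100 nM PFOS, with 1 symbol per library and a line at the mean; each panel has its own axis from 0. The shares of Pfkl, Pfkm, Aldoc and Idh1 do not overlap between the groups, that of Hk2 does, and the means of Ldhb and Slc16a3 at 100 nM are set by the third replicate, at 0.0327% and 8.21%.

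None of the 5 genes of the pyruvate dehydrogenase complex and its kinase passed the test in limma, and 2 had an unadjusted p under 0.05, 1 in each direction. Pdk1, the kinase that switches the complex off, ranged over 10.25 to 11.18 FPKM at 0 nM and 11.36 to 11.61 FPKM at 100 nM without overlap (adjusted p 0.226). Pdhb, the beta subunit of the first enzyme, had lower values without overlap, at 28.07 to 28.62 against 26.02 to 27.70 FPKM (adjusted p 0.198). Pdha1, the alpha subunit of the same enzyme, had means of 50.0 ± 1.64 and 52.5 ± 1.65 FPKM with overlap. Dlat and Dld, the other two enzymes of the complex, overlapped between the groups, with log2 differences of 0.01 and 0.04.

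From citrate to 2-oxoglutarate 3 of 4 means were higher at 100 nM, and none passed the test in limma (2 had an unadjusted p under 0.05). Idh1, the cytosolic NADP-dependent isocitrate dehydrogenase, was at 13.89, 14.03 and 14.23 FPKM at 0 nM and 16.09, 15.66 and 15.04 FPKM at 100 nM. All values at 100 nM were above those at 0 nM, and the log2 difference of 0.14 ± 0.031 had an adjusted p of 0.0618. It passed among genes of at least 5 FPKM (0.0444) and among protein-coding genes (0.0464). Idh2, the mitochondrial NADP-dependent form, was at 51.46, 48.94 and 50.64 FPKM at 0 nM and 51.00, 51.76 and 49.59 FPKM at 100 nM, with overlap. The share of Idh1 in the pair was 21.8% ± 0.522 at 0 nM and 23.5% ± 0.424 at 100 nM, without overlap. Cs, citrate synthase, was at 52.59, 53.71 and 53.34 FPKM at 0 nM and 56.01, 55.76 and 56.58 FPKM at 100 nM, again without overlap, with a log2 difference of 0.08 ± 0.019 and an adjusted p of 0.0873. Idh3a, the catalytic subunit of the NAD-dependent enzyme of the cycle, had means of 30.7 ± 0.123 and 30.6 ± 0.391 FPKM.

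From 2-oxoglutarate to oxaloacetate 5 of 6 means were lower at 100 nM, and Ogdh alone passed the test. Suclg1, the alpha subunit of succinyl-CoA ligase, was at 20.91 to 21.79 FPKM at 0 nM and 20.01 to 20.61 FPKM at 100 nM without overlap (adjusted p 0.303). Fh1, fumarate hydratase, was at 35.37 to 36.59 and 33.52 to 35.00 FPKM, also without overlap (adjusted p 0.304). Sucla2, the ATP-forming beta subunit of the ligase, overlapped (adjusted p 0.663). Mdh1, the cytosolic malate dehydrogenase, was at 51.56, 53.31 and 52.54 FPKM at 0 nM and 51.11, 52.86 and 52.44 FPKM at 100 nM. Mdh2, the mitochondrial form, was at 80.99, 80.95 and 83.50 FPKM at 0 nM and 82.77, 84.41 and 84.75 FPKM at 100 nM. Both overlapped between the groups, while the share of Mdh1 in the pair, 39.1% ± 0.564 at 0 nM and 38.3% ± 0.179 at 100 nM, did not.

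Of 74 listed genes in the adjoining pathways, 54 reached 1 FPKM and 3 were called, all lower at 100 nM. That is 5.56% of the 54, near the 4.15% of all genes tested. Me2, the mitochondrial malic enzyme that turns malate into pyruvate, was at 17.36, 17.36 and 18.28 FPKM at 0 nM and 15.00, 15.12 and 14.60 FPKM at 100 nM, with a log2 difference of -0.23 ± 0.031 and an adjusted p of 0.0148. Pck2, the mitochondrial phosphoenolpyruvate carboxykinase, was at 9.20, 8.96 and 9.25 FPKM at 0 nM and 8.20, 7.76 and 8.10 FPKM at 100 nM (adjusted p 0.0419). Got1, the cytosolic aspartate aminotransferase of the malate-aspartate shuttle, was at 28.31, 28.23 and 28.38 FPKM at 0 nM and 25.33, 26.36 and 25.73 FPKM at 100 nM (adjusted p 0.0377). The groups did not overlap for any of the 3. Around Me2, 14 of 19 tested genes within 2.5 Mb had a lower mean, with a median of -0.14 and 3 calls, while around Pck2 and Got1 the means were spread over both directions. The calls of Pck2 and Got1 were lost when any 1 of the 6 libraries was left out, and that of Me2 when any other than the third replicate at 100 nM was left out. Without that replicate the adjusted p was 0.0848 for Pck2, 0.0839 for Got1 and 0.0403 for Me2. By list, 0 of 10 other glycolysis and lactate genes, 2 of 25 other pyruvate entry and TCA cycle genes, 0 of 9 pentose phosphate genes and 1 of 10 shuttle and citrate export genes were called by limma, and 3, 7, 2 and 2 of them had an unadjusted p under 0.05, or 14 of 54, where 20.7% of all genes tested did.

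Closest to the threshold among the uncalled genes of these lists were Eno3, the muscle enolase, at 77.57, 76.42 and 81.76 FPKM at 0 nM and 72.48, 70.48 and 67.65 FPKM at 100 nM (adjusted p 0.0622), and Gpd1l, a cytosolic glycerol-phosphate dehydrogenase-like enzyme, at 7.22, 6.41 and 6.46 against 7.64, 8.16 and 7.85 FPKM (adjusted p 0.0744). Bsg, the chaperone that carries monocarboxylate transporters to the membrane, was at 316, 312 and 305 FPKM at 0 nM and 324, 335 and 331 FPKM at 100 nM without overlap (adjusted p 0.0775). Tkt, the transketolase of the pentose phosphate pathway, was at 71.25, 70.75 and 71.81 FPKM at 0 nM and 73.27, 74.44 and 74.71 FPKM at 100 nM without overlap (adjusted p 0.155). Taldo1, the transaldolase, was at 45.5, 46.77 and 49.07 FPKM at 0 nM and 49.19, 49.48 and 52.35 FPKM at 100 nM, where the highest control nearly met the lowest treated value (adjusted p 0.221). Eno3 was listed above Eno2 in every library of this epithelial line.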

How the data were processed

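Poly(A) RNA of 4T1 cells was sequenced in pairs from dUTP-marked libraries, per the labels' protocols. The authors deposited FPKM per gene, to 2 decimals, 1 file per library; fastp, HISAT2, StringTie and the builds GRCh38 and mm10 are named without versions, per the submitters' processing notes. Mouse identifiers of the deposited FPKM were matched to GENCODE M21 (GRCm38; 28350 of 28418, 25640 with the same coordinates). The sources used here give neither strand use, the role of GRCh38 nor depth. Low values did not fall on whole reads (23.5% to 26.9% within 0.1 of a multiple), so no count model was used.

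Genes averaging 1 FPKM or more were fitted with limma 3.58.1 (R 4.3.3) with a mean-variance trend on log2(FPKM + 1), a scale that understates changes of low genes, 100 nM minus 0 nM, two-sided, Benjamini-Hochberg adjusted over 11741 genes, called under 0.05. The procedure was tested on simulated data. Sharing was counted in 31-base words of GENCODE transcripts, and a copy is a gene with at least 50% of its words in a member. Groups come from the treatment label. Same-numbered replicates were checked for pairing, and their deviations correlated at -0.03, -0.05 and 0.01. Every-library values are given for called members, the 4 uncalled with the smallest adjusted p, the highest and lowest member and the isozyme pairs; of adjoining lists, called genes and the 2 smallest adjusted p per list. Slc2a1, Gapdh, Hk3, Dlst and the copies were described after their values were seen. The members and lists were chosen with earlier results of these data known. Alternatives covered scaling, pseudocount, filter, genes fitted, moderation, a replicate block and left-out libraries; adding copies to a member was chosen after seeing the data. Python 3.11.15, numpy 2.4.6, pandas 2.3.3 and matplotlib 3.10.9 were used.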

Additional observations from a re-analysis of the deposited data

How the results depend on the processing

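Against 4 calls among the 37 genes, limma made 0 with the replicate block, where 13 genes had an unadjusted p under 0.05, and 0 with replicate 3 of both groups left out (13 unadjusted). There was 1 call without a filter on low values (1 higher, 0 lower), and there were 2 without the mean-variance trend (0 lower). Quantile normalization gave 1 higher call where there had been 2, and fitting protein-coding genes only gave 4 higher. Over all genes tested, higher calls were 198 in the main fit and 193 under quantile normalization. The fit of 10232 protein-coding genes made 284. Among the 37 genes, higher and lower calls were 0 each under the block and with replicate 3 of both groups left out. Leaving out 1 library gave 0 to 3 calls, 0 to 2 higher and 0 to 1 lower: 1 without the first or the second replicate of either group, 0 without the third at 0 nM (9 unadjusted) and 3 without the third at 100 nM. The 3 calls in adjoining pathways became 1 without the filter, 1 without the trend, 0 under the block (11 unadjusted), 0 without replicate 3 of both groups (11 unadjusted) and 0 to 1 without 1 library. Over all genes tested the 487 calls became 204, 294, 58 and 74 under those settings, in that order, and 122 to 289 without 1 library, so each of these settings called fewer genes throughout. The same-numbered replicates were not shown to be paired. The 4 called members kept their direction under all 19 alternatives; adjusted p ranged over 0.0209 to 0.148 for Pfkm, 0.00738 to 0.107 for Aldoc, 0.00524 to 0.112 for Pgk1 and 0.0281 to 0.132 for Ogdh.

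The log2 difference changed sign for 8 uncalled members, mostly when 1 library was left out. Over the 6 libraries left out in turn, Hk2 ran from -0.0295 to 0.0258 (negative without the first replicate of either group, at -0.0259 for 0 nM), Ldhb from -1.25 to 0.0673 (positive without the third at 100 nM), Slc16a3 from -0.35 (the same library) to 0.61, Dlat from -3.07e-05 (without the first at 0 nM) to 0.0293, Idh2 from -0.0076 (without the second at 0 nM; -0.0013 without the second at 100 nM) to 0.0290, Idh3a from -0.0146 to 0.0023 (without the second at 100 nM), and Mdh1 from -0.0214 to 0.0050 (without the first at 100 nM; 0.0023 without the second at 0 nM). Quantile normalization gave -0.0036 for Ldha and 0.0012 for Idh3a, and leaving out replicate 3 of both groups 0.10 for Ldhb and -0.25 for Slc16a3. The cause was not tested. Read depth is unknown, so precision is known only from 3 libraries a group.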
